A study of Homo sapiens with 18 samples.

Results

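The comparison described here sets RPE1 cells given the Aurora kinase inhibitor ZM447439 against untreated RPE1 cells, with both populations sorted for a 2N DNA content. RPE1 is an established cell line from human retinal pigment epithelium that is close to diploid. Treated cells received 2.5 µM ZM447439 for 24 h and untreated cells received no drug. All cells were grown with 10% serum, stained with the DNA dye Hoechst at 2 µg/mL for 60 min and sorted by flow cytometry. The drug label alone separates the groups, since every library carries the same treatment text. There are 3 biological replicates per group, so 6 of the 18 libraries of the series enter the comparison. The other libraries hold 2N cells treated with cytochalasin D, a blocker of actin polymerisation given at a dose and time that the labels do not state, and 4N cells of all 3 treatments. The genes are those whose mean over the 18 libraries was 0.5 RPKM or more, which were 13037 of the 57773 in the table (22.6%), among them 7750 of 18472 protein-coding genes with any value above 0. RPKM, the number of reads scaled by library size and by gene length, was here computed over the whole span of a gene with its introns. Long genes therefore have low values, and levels are not compared between genes below.

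Aurora A acts at centrosomes and on the spindle. Aurora B, held in the chromosomal passenger complex by INCENP, survivin (BIRC5) and borealin (CDCA8), corrects chromosome attachments and is needed for cytokinesis. Cells that pass through mitosis without Aurora B activity can fail to divide and become tetraploid, which can activate p53 and its target CDKN1A (p21). A 2N sort is meant to exclude cells with a doubled genome and to hold cells of diploid content in G1, in quiescence or in early S phase. Genes of the G2/M and G1/S programmes are repressed outside the cycle by the DREAM complex, which binds a promoter element called the cell-cycle homology region in G2/M genes and E2F sites in G1/S genes.

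Implied library sizes were 51135642 to 78294394 reads over the 6 libraries. ZM447439 replicate 1 stood apart from replicates 2 and 3. The median absolute log2 difference over genes was 0.15 and 0.16 from those replicates, against 0.06 between them, and 205 and 258 genes were 2-fold apart against 61. Untreated replicate 3 also stood apart, by a median of 0.09 from each of the others, which were 0.05 from each other. The labels do not say why, and results that rest on these libraries are given with and without them. Of 7 tested markers of retinal pigment epithelium out of 21 matched, BEST1 was 47.1, 49.7 and 54.6 RPKM in untreated cells. OTX2, PAX6, PMEL, RDH5, KRT8 and KRT18 were also above the filter. The libraries did not mark strand, so reads of a gene overlapping any of these markers on the other strand would be counted with them. The defining markers RPE65, RLBP1, TYR and TYRP1 did not pass the filter. MITF did not either, at 0.149, 0.148 and 0.146 RPKM in untreated cells. Because long genes have low values, a value below the filter does not show that a gene was silent. Of 17 blood cell markers only CD68 passed the filter, and 3 were at 0 in all 6 libraries.

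With ZM447439, 3073 genes rose (23.6% of those tested) and 4231 fell (32.5%), so that 7304 passed an adjusted p of 0.05 in limma (56%). Most changes were small: 199 genes rose and 443 fell by 2-fold or more. The median log2 difference of all genes was -0.04. In 7875 genes (60.4%) the RPKM of the 3 treated and the 3 untreated libraries did not overlap. Without ZM447439 replicate 1 the counts were 3359 up (25.8%) and 4217 down (32.3%). With libraries rescaled to a common median ratio, 3679 rose and 3688 fell, and with quantile normalization 3738 rose and 3573 fell, so the excess of falls depends on the scaling. Among tested pseudogenes 222 rose and 731 fell of 2143, among long noncoding genes 471 rose and 497 fell of 1831, and among protein-coding genes 2166 rose and 2758 fell of 7750. RPKM values are shares of a library, so a lower value cannot tell fewer cells that express a gene from less RNA of it per cell.

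**Figure D1:**
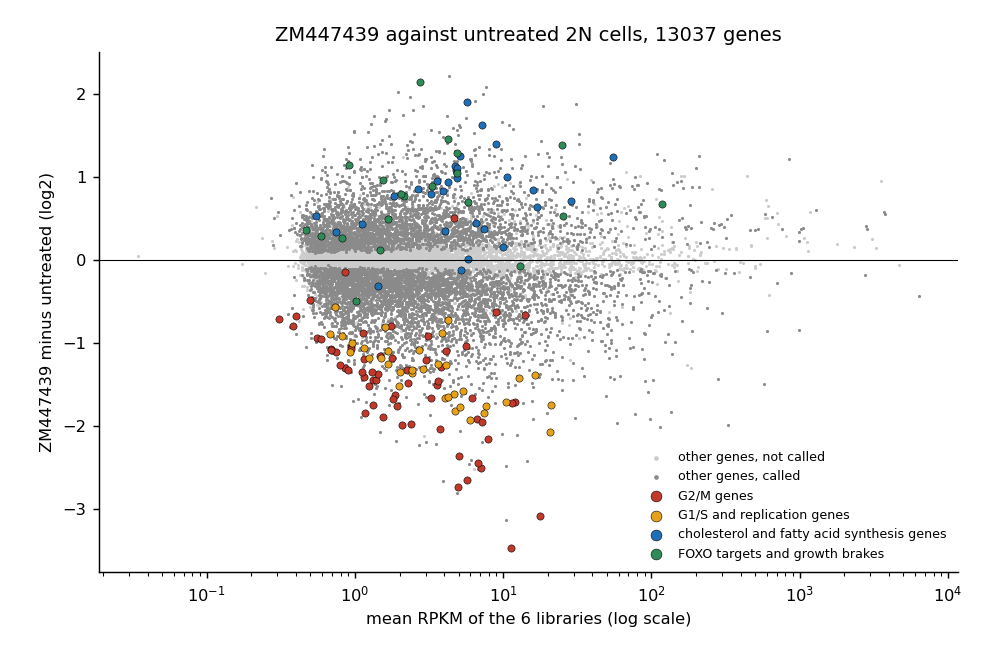
Log2 difference between ZM447439 and untreated 2N cells (vertical) against the mean RPKM of the 6 libraries (horizontal, log scale), one point per gene. G2/M and G1/S genes form the lower edge of the cloud, down to -3.48 for KIF20A, and genes of cholesterol synthesis and FOXO targets lie mostly above 0.

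The genes of mitosis held the largest falls. Of 62 tested G2/M genes 60 fell and 0 rose, with a median log2 difference of -1.37, against a fall in 32.5% of all genes. KIF20A, the kinesin that carries passenger proteins to the central spindle, was 22.8, 21.4 and 18.3 RPKM in untreated cells and 2.85, 0.941 and 0.941 with the drug, a log2 difference of -3.48 (SE 0.29, adjusted p = 2.04e-07). CDC20, the activator of the anaphase-promoting complex, went from 34.9, 35 and 25.9 to 5.84, 2.50 and 2.32 RPKM (-3.09, SE 0.28, adjusted p = 4.36e-07). In both genes every treated library was below every untreated one, and ZM447439 replicate 1 was the highest of the treated libraries. PLK1, the polo-like kinase of mitotic entry, was 10.0, 9.70 and 7.14 RPKM untreated and 1.71, 0.671 and 0.575 treated (-2.73, SE 0.25). CCNB1, which encodes cyclin B1, was 11, 10.7 and 8.71 RPKM and then 2.06, 0.936 and 0.798 (-2.65, SE 0.23). The securin gene PTTG1 fell by 2.45, the midzone microtubule bundler PRC1 by 2.36 and the proliferation marker MKI67 by 2.17 on the log2 scale. The library kit did not mark strand, so reads of PRC1 cannot be told from those of an overlapping antisense gene. CENPA (-0.14) and SPC24 (0.51) were the 2 members that did not pass. CDK1, the mitotic kinase itself, was 2.37, 2.97 and 1.66 RPKM untreated against 1.82, 0.910 and 0.737 treated, and these ranges overlapped (-0.80, SE 0.25, adjusted p = 0.0136). The CDK1 call was lost in 4 of 19 alternatives. Among these were the fits without untreated replicate 2 or without ZM447439 replicate 2 or 3 (adjusted p 0.0527 to 0.0703).

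The promoters of these genes show what they share outside the measured values. RefSeq windows of the GRCh38.p14 build, from 250 bases before to 50 after the start of a gene, were found for 49 of the 60 G2/M genes that fell. The core of the cell-cycle homology region, TTTGAA on either strand, was present in 33 of them (67.3%), against 8.7% of 6227 tested protein-coding genes with a window and 15.4% of all 27305 windows. The CCAAT box, searched as CCAAT on either strand, was in 37 of the 49 (75.5%), against 38.2% of tested genes. A match of letters is a description and does not show binding. CDC20, PLK1, PRC1 and MKI67 were among the G2/M genes with the largest falls that hold the element before the start. Their windows are printed 5′ to 3′ in the direction of the gene, with the element in capitals.
CDC20, chr1:43358886-43358951, plus strand: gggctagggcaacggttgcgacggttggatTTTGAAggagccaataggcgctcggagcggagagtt
PLK1, chr16:23678830-23678888, plus strand: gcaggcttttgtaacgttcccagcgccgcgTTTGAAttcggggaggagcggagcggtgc
PRC1, chr15:90994536-90994585, minus strand: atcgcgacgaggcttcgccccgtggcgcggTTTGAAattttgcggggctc
MKI67, chr10:128126424-128126482, minus strand: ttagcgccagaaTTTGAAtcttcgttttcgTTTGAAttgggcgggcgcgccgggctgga
The element began 65 bases before the start site in CDC20, 29 bases before it in PLK1 and MKI67, and 20 bases before it in PRC1. MKI67 holds it again 47 bases before the start.

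The drug's own target family fell with the G2/M programme. All 6 tested genes of the Aurora kinases and chromosomal passenger complex fell (median -1.41), against a fall in 32.5% of all genes. AURKC and BORA did not pass the filter. AURKA was 2.48, 2.56 and 1.49 RPKM in untreated cells and 0.758, 0.384 and 0.302 with ZM447439 (-1.45, SE 0.19, adjusted p = 1.79e-05). AURKB was 6.23, 6.48 and 4.06 RPKM and then 2.61, 1.71 and 1.60 (-1.30, SE 0.17, adjusted p = 2.11e-05). Untreated replicate 3 was the lowest untreated library for both kinases, yet it was above all treated libraries. BIRC5 fell by 2.51, from 12.3 ± 0.613 to 1.86 ± 0.996 RPKM (SD, n = 3), the spindle factor gene TPX2 by 1.77 and CDCA8 by 1.38 on the log2 scale. INCENP, the scaffold of the complex, had the smallest fall of the 6 (-0.73, SE 0.13). With cytochalasin D against untreated 2N cells all 6 genes fell as well (median -1.98), as did 60 of 62 G2/M genes (median -1.84). These are transcript levels, and kinase activity was not measured.

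Genes of DNA replication fell as uniformly. Of 35 tested G1/S and replication genes 35 fell, with a median of -1.33, against a fall in 32.5% of all genes. In all 35 the treated and untreated libraries did not overlap, against 60.4% of all genes. MCM5, a subunit of the replicative helicase, was 7.49, 7.5 and 8.07 RPKM untreated and 2.16, 1.68 and 1.62 treated (-1.83, SE 0.07, adjusted p = 5.78e-10). RRM2, the ribonucleotide reductase subunit that supplies deoxynucleotides, went from 33.6 ± 3.62 to 7.90 ± 3.04 RPKM (SD, n = 3; -2.07, SE 0.20). For MCM5 untreated replicate 3 was the highest untreated library, whereas it was the lowest for the Aurora kinases. Thymidine kinase TK1 fell by 1.93 and thymidylate synthase TYMS by 1.85 on the log2 scale. ZM447439 replicate 1 lay between the untreated libraries and the other treated libraries for 58 of 62 G2/M genes and 32 of 35 G1/S genes. Without it the medians were -1.54 for G2/M and -1.40 for G1/S genes, and 60 and 35 members fell.

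E2F letters were more frequent in these promoters than in those of the G2/M genes. The letters TTTGGCGC, TTTCCCGC, TTTCGCGC or TTTGCCGC on either strand were in 13 of 29 windows of G1/S genes that fell (44.8%), in 2 of 49 windows of G2/M genes (4.1%) and in 5.7% of tested genes. The reverse held for TTTGAA, which was in 1 of the 29 G1/S windows (3.4%). No test was made of these shares. The windows of TYMS, CDT1, which loads the helicase at origins, and MCM3, a helicase subunit, are given because they hold such a site before the start and belong to the largest falls (-1.85, -1.78 and -1.77), with the site in capitals.
TYMS, chr18:657584-657651, plus strand: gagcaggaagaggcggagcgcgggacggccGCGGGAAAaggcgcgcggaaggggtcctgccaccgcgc
CDT1, chr16:88803724-88803788, plus strand: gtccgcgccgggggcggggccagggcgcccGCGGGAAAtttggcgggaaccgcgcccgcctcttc
MCM3, chr6:52284879-52284946, minus strand: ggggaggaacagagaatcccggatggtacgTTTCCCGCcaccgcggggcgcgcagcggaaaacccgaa
In TYMS and CDT1 the site is read on the opposite strand, so the capitals show its reverse complement.

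**Figure D2:**
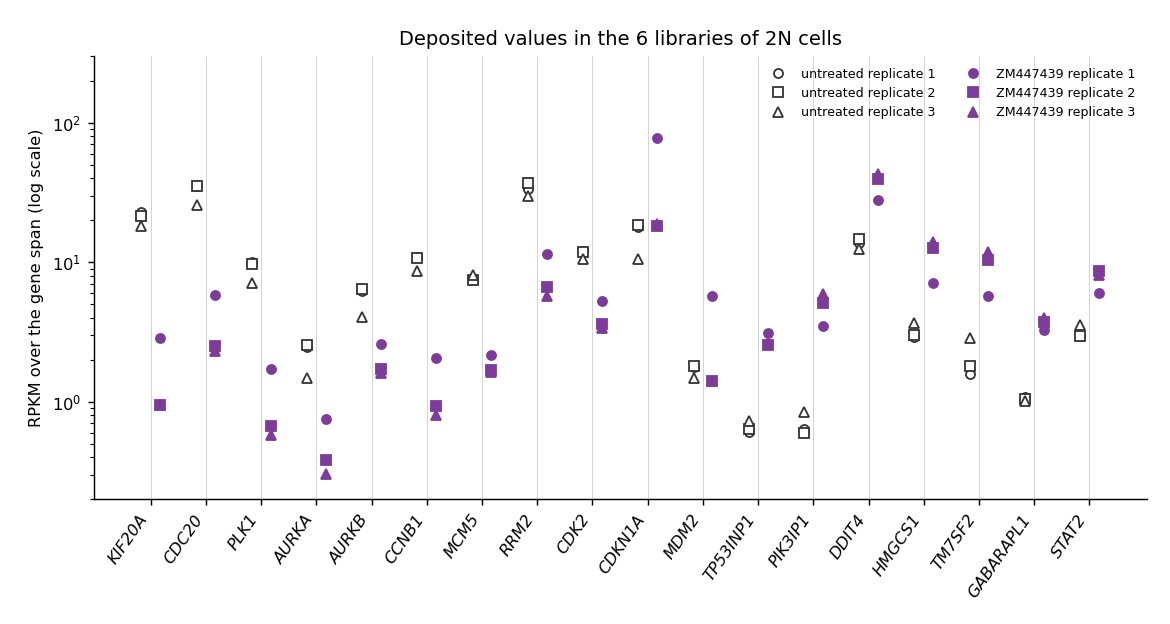
RPKM over the gene span in each of the 6 libraries (log scale) for 18 genes, with open symbols for untreated and filled symbols for ZM447439 libraries and one symbol shape per replicate number. KIF20A, CDC20 and the Aurora kinases fell in all 3 treated libraries, and CDKN1A and MDM2 were high in ZM447439 replicate 1 (77.7 and 5.71 RPKM) and at 18.7 and 1.40 RPKM or lower in replicates 2 and 3.

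The p53 targets had no clear direction as a list that held without ZM447439 replicate 1. Of their best known members, 2 were high in 1 library only. CDKN1A was 17.8, 18.4 and 10.5 RPKM in untreated cells and 77.7, 18.3 and 18.7 with ZM447439 (0.97, SE 0.55, adjusted p = 0.148). MDM2, the ubiquitin ligase that p53 induces against itself, was 1.77, 1.8 and 1.49 RPKM and then 5.71, 1.40 and 1.40 (0.37, SE 0.38, adjusted p = 0.438). In both genes replicate 1 alone was high, and replicates 2 and 3 were near or below the highest untreated library. Without replicate 1 the log2 differences were 0.29 for CDKN1A and -0.20 for MDM2, neither of which passed. Of 28 tested p53 targets 8 rose and 1 fell (median 0.37). The share of rises was near the 23.6% of all genes, and the share of falls was below the 32.5% of all genes. With the replicate number as a block 13 rose and 2 fell, against 3382 and 4494 of all 13037 genes. Without replicate 1, 6 rose and 3 fell, and the median was 0.08. Without replicate 1 and untreated replicate 3 together 5 rose and 2 fell (median -0.01), while 11 rose and 11 fell once 6 libraries that stood apart were dropped, namely replicate 1 of both drugs and replicate 3 of untreated cells in each sort. With those 6 dropped, 4209 of all 13037 genes rose and 4746 fell. The p53 list median by library was 0.74 in replicate 1 and 0.09 and 0.08 in replicates 2 and 3. TP53INP1, which promotes p53 activity and autophagy, was the member that rose most and did so in every treated library, from 0.609, 0.634 and 0.730 to 3.11, 2.54 and 2.62 RPKM (1.49, SE 0.11, adjusted p = 9.37e-08). NINJ1 rose by 0.88 (SE 0.16), the cytokine gene LIF by 0.86 (SE 0.13) and ZMAT3 by 0.78 (SE 0.23).

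Regulators of the G1 phase moved in both directions, with 3 up and 5 down of 12 tested. Among all genes 23.6% rose and 32.5% fell, so these counts alone do not set the list apart. CDK2, the kinase of S-phase entry, was 12.1, 11.9 and 10.6 RPKM untreated and 5.26, 3.60 and 3.37 treated (-1.41, SE 0.16, adjusted p = 4.27e-06). Its cyclin gene CCNE2 fell by 1.10 (SE 0.08) and the CDK4 inhibitor gene CDKN2C by 0.81 (SE 0.09). CDKN2B, which encodes the CDK4 and CDK6 inhibitor p15, rose from 4.07, 3.63 and 3.09 to 11.6, 7.05 and 7.61 RPKM (1.15, SE 0.25, adjusted p = 0.00121). CCND1, which encodes cyclin D1, was 65.2, 61.6 and 55.6 RPKM untreated and 69.3, 30.9 and 27.8 treated. ZM447439 replicate 1 was the highest of the 6 for CCND1 and the other treated libraries were the lowest, and the difference did not pass (-0.63, SE 0.26, adjusted p = 0.0549). Without ZM447439 replicate 1 the fall of CCND1 passed (-1.03, adjusted p = 0.000127). Of 8 tested replication-dependent histone genes 5 rose and 1 fell (median 0.78), against a rise in 23.6% of all genes. H2BC21 (1.33, SE 0.28) and H1-2 (1.06, SE 0.19) led the rises. The libraries were made from polyadenylated RNA, whereas most histone messages of S phase carry no poly(A) tail, and histone genes have near-identical copies whose reads could be split.

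**Figure D3:**
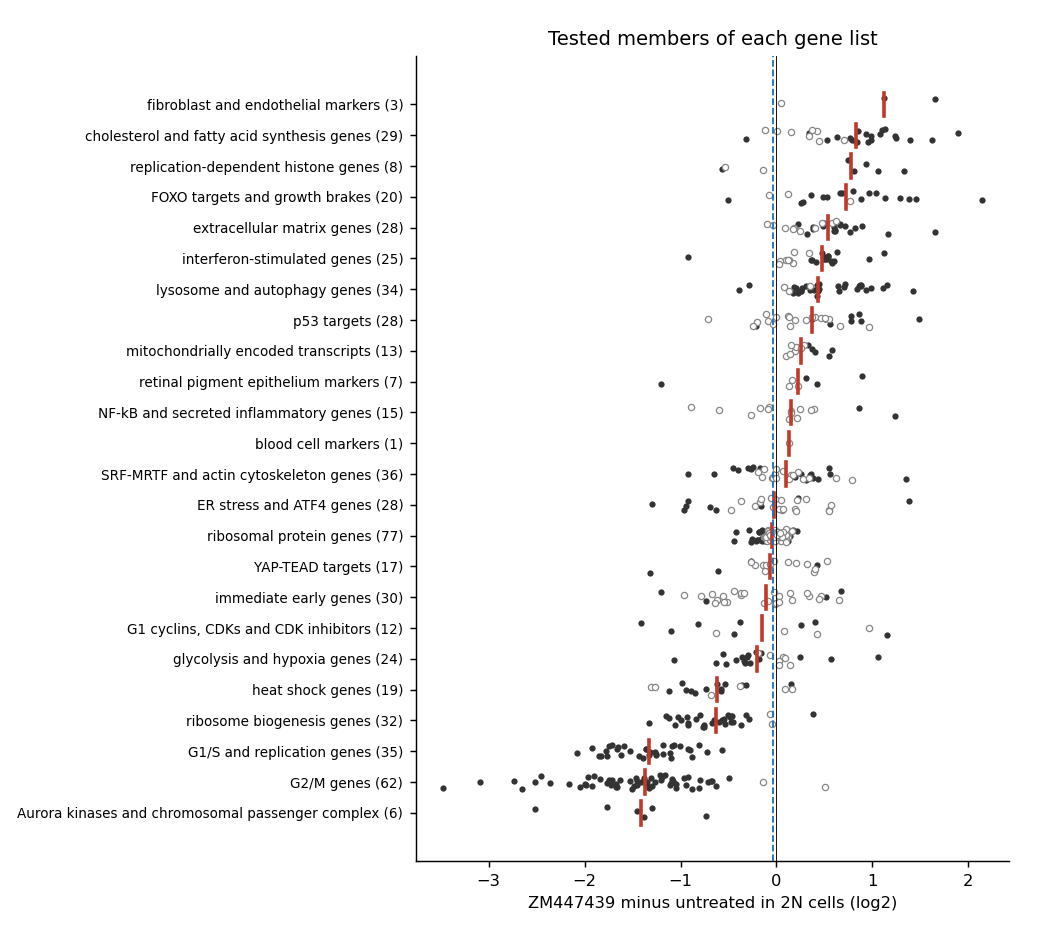
Log2 difference between ZM447439 and untreated 2N cells for every tested member of each gene list, with the number tested in parentheses. Filled points passed an adjusted p of 0.05, open points did not, red bars are list medians and the dashed blue line is the median of all genes (-0.04). The lists run from the Aurora genes, with a median of -1.41, up to cholesterol synthesis genes at 0.83 and the 3 tested fibroblast and endothelial markers at 1.12.

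Genes that restrain growth signalling rose. FOXO factors are held out of the nucleus by PI3K and AKT signalling, and their targets are raised when growth signals are low. Of 20 tested FOXO targets and growth brakes 16 rose and 1 fell (median 0.73), against a rise in 23.6% of all genes. PIK3IP1, an inhibitor of PI3K, was 0.642, 0.599 and 0.840 RPKM untreated and 3.50, 5.12 and 5.91 treated (2.14, SE 0.14, adjusted p = 3.57e-08), the largest rise among genes selected by the naming rule. YPEL3, a growth suppressor, rose from 1.7, 1.77 and 2.61 to 4.90, 7.03 and 7.35 RPKM (1.45, SE 0.14). DDIT4, an inhibitor of mTORC1, rose from 13.8, 14.6 and 12.3 to 27.7, 39.3 and 42.8 RPKM (1.38, SE 0.26). In all 3 genes ZM447439 replicate 1 was the lowest treated library and was still above the untreated ones. BMF, a pro-apoptotic BCL2 family member, rose by 1.28 (SE 0.34) but its libraries overlapped, since untreated replicate 3 (4.21 RPKM) was above ZM447439 replicate 1 (3.66 RPKM). IRS1, an adaptor of the insulin receptor, was the member that fell (-0.50).

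Ribosome production genes fell. Of 32 tested ribosome biogenesis genes 29 fell (median -0.63), against a fall in 32.5% of all genes. The polymerase subunit gene POLR1C was the 1 member that rose. NOLC1, a nucleolar chaperone, was 22.2, 21.3 and 20.8 RPKM untreated and 10.1, 7.56 and 7.23 treated (-1.33, SE 0.12, adjusted p = 3.41e-07). The pseudouridine synthase DKC1 fell by 1.15 (SE 0.09), TCOF1, which supports ribosomal RNA transcription, by 1.12 (SE 0.08), and the helicase DDX21 by 1.06 (SE 0.11). Within each of these genes the 3 untreated libraries were close and the treated ones lay well below. MYC, a transcriptional activator of such genes, was 19.6, 17.5 and 14.7 RPKM untreated and 14.2, 8.03 and 9.04 treated (-0.73, SE 0.29, adjusted p = 0.0412). Its adjusted p was 0.0890 to 0.152 when untreated replicate 1 or 2 or ZM447439 replicate 2 or 3 was left out, and 0.0621 and 0.0718 after rescaling and quantile normalization. The E-box CACGTG, a motif that MYC and the lysosomal regulator TFEB can both bind, was in 9 of 24 windows of the ribosome biogenesis genes that fell (37.5%), against 11.1% of tested genes. Structural ribosomal protein genes changed little: 5 rose and 19 fell of 77, with a median of -0.05. That split turned to 14 up and 9 down after rescaling and to 12 up and 9 down after quantile normalization, so no direction can be given for them.

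Lysosomal genes rose, many by small amounts. Of 34 tested lysosome and autophagy genes 29 rose (median 0.43), against a rise in 23.6% of all genes. The 2 that fell were the galactosidase gene GLA and the glucuronidase gene GUSB. GABARAPL1, an autophagosome protein of the ATG8 family, was 1.07, 1.05 and 1.01 RPKM untreated and 3.28, 3.74 and 3.95 treated (1.43, SE 0.12, adjusted p = 2.34e-07). The peptidase gene TPP1 rose from 15.6, 15 and 14.4 to 23.7, 39.5 and 41.7 RPKM (1.15, SE 0.16), the sialidase gene NEU1 by 1.11 (SE 0.24) and the saposin precursor PSAP by 0.99 (SE 0.13). The treated libraries were all higher for these genes, with replicate 1 nearest to the untreated ones. Lysosomal promoters often carry the CLEAR element, whose core is also CACGTG. This core was in 7 of 21 windows of the members that rose (33.3%), against 11.1% of tested genes. The windows of NEU1, the protective protein gene CTSA and the cathepsin D gene CTSD are given, with the core in capitals. They are among the members with the largest rises that hold the core, which CTSA holds at 2 places.
NEU1, chr6:31862912-31862977, minus strand: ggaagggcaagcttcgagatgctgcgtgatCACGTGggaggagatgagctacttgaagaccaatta
CTSA, chr20:45891280-45891334, plus strand: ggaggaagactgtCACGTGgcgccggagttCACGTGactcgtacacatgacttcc
CTSD, chr11:1763939-1764004, minus strand: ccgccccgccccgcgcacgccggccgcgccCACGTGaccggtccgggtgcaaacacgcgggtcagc
CTSA was 19.6 ± 0.346 RPKM untreated against 39.1 ± 11.9 treated (SD, n = 3), and CTSD was 131, 135 and 124 RPKM against 178, 270 and 286.

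Sterol synthesis genes also rose. These genes are induced by the SREBP factors when sterols are low. Of 29 tested genes of cholesterol and fatty acid synthesis 20 rose (median 0.83), against a rise in 23.6% of all genes. The mevalonate pathway kinase gene PMVK was the 1 member that fell. TM7SF2, a sterol reductase, was 1.58, 1.79 and 2.87 RPKM untreated and 5.74, 10.3 and 11.8 treated (1.90, SE 0.25, adjusted p = 1.66e-05). HMGCS1, which makes the precursor of mevalonate, rose from 2.90, 3.00 and 3.64 to 7.09, 12.7 and 14 RPKM (1.63, SE 0.44, adjusted p = 0.00586). Here too replicate 1 was the lowest treated library and remained above the untreated ones. The number that rose depended on single libraries: it was 9 without ZM447439 replicate 3, 11 without ZM447439 replicate 2, and 13 without untreated replicate 1 or without untreated replicate 2, with medians of 0.69 to 0.79. The sterol response element, searched as CACCCCAC or CACCCCAT on either strand, was in 1 of 15 windows of the members that rose (6.7%), against 3.3% of tested genes. The list median by library was 0.45 in ZM447439 replicate 1 and 0.96 and 1.07 in replicates 2 and 3.

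**Figure D4:**
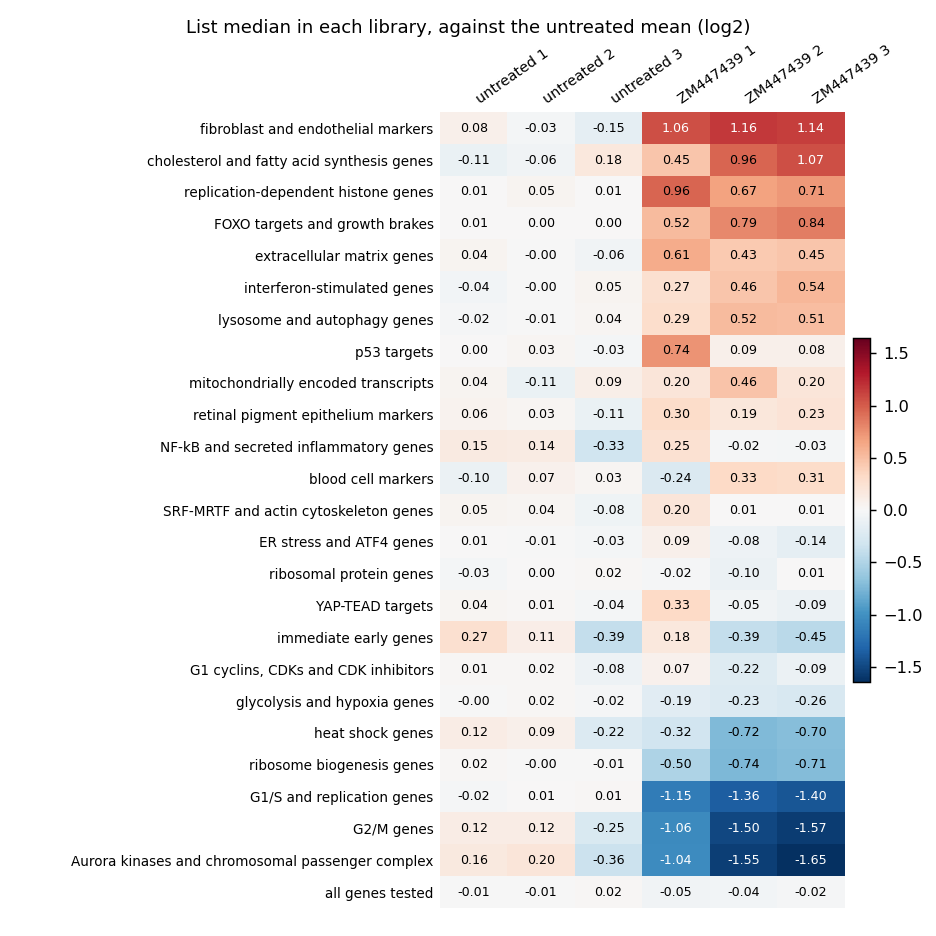
Median log2 value of each list's tested members in each library, relative to the mean of the 3 untreated libraries, with the colour scale in log2 units. ZM447439 replicate 1 had the smallest shift of the treated libraries for G2/M genes (-1.06 against -1.50 and -1.57) and the largest for p53 targets (0.74 against 0.09 and 0.08).

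Interferon-stimulated genes rose moderately, with 16 up and 1 down of 25 tested (median 0.48), against a rise in 23.6% of all genes. STAT2 and IRF9, subunits of the factor that turns these genes on, were the members that rose most. STAT2 was 2.97, 2.98 and 3.56 RPKM untreated and 5.99, 8.61 and 8.04 treated (1.12, SE 0.11, adjusted p = 1.48e-06), and IRF9 rose by 0.96 (SE 0.13). The classical target ISG15 rose less, from 6.37 ± 0.279 to 9.49 ± 1.30 RPKM (SD, n = 3), and IFIT1 did not pass (0.34). A further 11 genes of the list, MX1, OAS1 and IFI27 among them, were below the filter. OAS3, a sensor of double-stranded RNA, fell in all 3 treated libraries, from 1.10, 1.15 and 1.2 to 0.411, 0.375 and 0.330 RPKM (-0.92, SE 0.08). ISG15 and IFIT1 were picked after their values were seen. Among NF-kB targets and secreted inflammatory genes 2 of 15 rose, the chemokine gene CCL2 (1.24, SE 0.15) and LIF, and 0 fell, a share of rises below the 23.6% of all genes. Without the 6 libraries that stood apart 5 of these genes rose and 7 fell, and the median was -0.06 in place of 0.15. Of all 13037 genes 4209 rose and 4746 fell in that setting.

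Protein folding and glycolysis genes fell. Of 19 heat shock genes 12 fell and 1 rose (median -0.62), against a fall in 32.5% of all genes. The mitochondrial chaperonin HSPD1 was 18.8, 18.3 and 16.4 RPKM untreated and 10.4, 6.99 and 6.83 treated (-1.12, SE 0.12), and HSP90AA1 fell by 0.98 (SE 0.14). The stress-inducible pair HSPA1A and HSPA1B varied among untreated replicates themselves. HSPA1A was 401, 353 and 32.2 RPKM in the untreated libraries and 172, 46.0 and 40.8 in the treated ones and did not pass (adjusted p = 0.354); the pair is near-identical, so reads could be split between them. HSPA1A was picked after its values were seen. Of 24 glycolysis and hypoxia genes 14 fell and 3 rose (median -0.20), against a fall in 32.5% of all genes. The glycolytic enzyme ENO1 was 116, 117 and 118 RPKM untreated and 63.9, 51.7 and 51.4 treated (-1.07, SE 0.11), while the hypoxia-inducible growth factor gene VEGFA rose by 1.05 (SE 0.14) and the glucose transporter gene SLC2A1 by 0.57 (SE 0.10). The ER stress and ATF4 genes did not move as a list: of 28 tested 2 rose and 7 fell, a share of falls below the 32.5% of all genes, with a median of -0.03. Without the 6 libraries that stood apart 7 rose and 13 fell, against 4209 and 4746 of all 13037 genes. The serine synthesis and folate enzymes PSAT1 (-1.30, SE 0.22) and MTHFD2 (-0.94, SE 0.14) and the asparagine synthetase gene ASNS (-0.96, SE 0.24) were among those that fell, and DDIT4 was the largest rise.

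Matrix genes rose, in part through 1 library. Of 28 tested extracellular matrix genes 18 rose and 0 fell (median 0.54), against a rise in 23.6% of all genes. COL1A1, a chain of type I collagen, was 5.02, 4.27 and 3.90 RPKM untreated and 19.5, 13.5 and 12.4 treated (1.66, SE 0.52, adjusted p = 0.0136). The matrix glycoprotein SPARC rose from 33.0, 31.6 and 31.0 to 92.6, 61.6 and 64.8 RPKM (1.16, SE 0.39), and the gelatinase gene MMP2 from 16.4, 15.7 and 16.2 to 24.6, 30.1 and 32.1 RPKM (0.82, SE 0.10). Without ZM447439 replicate 1 the rise of SPARC did not pass (0.98, adjusted p = 0.0701). For COL1A1 and SPARC replicate 1 was the highest library, and for MMP2 it was the lowest of the treated. The count that rose was 10 without ZM447439 replicate 1 and 11 without untreated replicate 2 or without untreated replicate 3, and 0 fell in each. It was 8 without both ZM447439 replicate 1 and untreated replicate 3. Of the fibroblast and endothelial markers 3 of 11 matched passed the filter: COL1A1 and PDGFRB (1.12, SE 0.14) rose, and THY1 did not pass (0.05, SE 0.17). The summed RPKM of the 11 was 63.5 to 74.7 in untreated and 82.9 to 92.1 in treated libraries, that of 17 blood cell markers was 18.7 to 20.9 and 17 to 25.3, and that of 21 retinal pigment epithelium markers was 144 to 154 and 204 to 217. The blood cell sum was nearly all CD68, since the highest of the other 16 markers was LYZ, at 0.17 to 0.22 RPKM. The part of these marker sets in the results was not tested.

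Apart from the mitochondrially encoded transcripts, the other lists had shares of calls near or below those of all genes, or moved in both directions. Of 36 actin and SRF-MRTF genes 10 rose and 8 fell. LMOD1, an actin nucleator, rose by 1.35 (SE 0.16), and the tropomyosin gene TPM3 and the profilin gene PFN1 fell by 0.92 (SE 0.07) and 0.65 (SE 0.06). The number that rose was 6 without ZM447439 replicate 1 or without ZM447439 replicate 3, and 15 after quantile normalization, while without the 6 libraries that stood apart 13 rose and 14 fell. Among all 13037 genes 4209 rose and 4746 fell without those 6 libraries. Of 17 YAP-TEAD targets 1 rose and 3 fell, or 3 and 9 without those 6 libraries, among them FJX1 (-1.32, SE 0.10) and the receptor gene AXL (-0.61, SE 0.08). The immediate early genes depended on the libraries that stood apart. Of 30 tested 2 rose and 2 fell, and without ZM447439 replicate 1 it was 3 and 7, with a median of -0.37 in place of -0.11. Without ZM447439 replicate 1 and untreated replicate 3 together 2 rose and 11 fell (median -0.64), and without all 6 libraries that stood apart 4 rose and 19 fell. With the replicate number as a block 5 rose and 10 fell. Without untreated replicate 3, 2 rose and 5 fell. FOSL1, a subunit of AP-1, fell in every treated library, from 33.6, 32.3 and 23.5 to 16.7, 12.1 and 9.65 RPKM (-1.20, SE 0.17). Of 13 mitochondrially encoded transcripts 6 rose and 0 fell, against a rise in 23.6% of all genes. However, 0 passed after quantile normalization, 9 rose after rescaling and 4 without ZM447439 replicate 2, so their rise depends on the scaling.

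Some of the largest changes lay outside these lists. Among rises, PBXIP1, which encodes a partner of PBX homeobox proteins, went from 2.43, 2.48 and 2.92 to 10.1, 13.6 and 14.5 RPKM (2.08, SE 0.13, adjusted p = 2.81e-08), and IFITM10 from 2.21, 2.13 and 3.49 to 7.70, 14.6 and 13.9 RPKM (1.99, SE 0.20). CHI3L1, a secreted chitinase-like protein, was 0.701, 0.658 and 0.392 RPKM and then 1.57, 4.93 and 5.93 (1.95, SE 0.34). The carboxypeptidase gene CPA4 rose from 5.13 ± 0.210 to 16.8 ± 0.392 RPKM (SD, n = 3), and its treated libraries, replicate 1 included, differed little. The cytochrome P450 gene CYP1B1 rose by 1.55 (SE 0.24), the integrin gene ITGA11 by 1.62 (SE 0.21) and the hyaluronan-degrading protein gene CEMIP by 1.66 (SE 0.38). Among falls, SAPCD2, which has a role in spindle orientation, went from 7.47, 7.21 and 6.82 to 1.12, 0.598 and 0.481 RPKM (-2.67, SE 0.19). G0S2, an inhibitor of the lipase ATGL, fell from 20.6, 22.4 and 18.3 to 6.01, 3.48 and 3.88 RPKM (-2.11, SE 0.19). The histone variant gene H2AZ1 fell by 2.01 (SE 0.19), and processed copies of that gene could share its reads.

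A direct test against cytochalasin D in cells of the same sort asked which changes differ between the drugs. With ZM447439, 3022 genes were higher (23.2%) and 1783 lower (13.7%) than with cytochalasin D, and after rescaling 2411 were higher and 2243 lower. The replication genes separated the drugs: 33 of 35 G1/S genes were higher with ZM447439 and 0 lower (median 0.75). MCM5 was 1.82 ± 0.296 RPKM with ZM447439 and 0.628 ± 0.057 with cytochalasin D (SD, n = 3; log2 difference 1.03, adjusted p = 3.57e-07), and RRM2 was 7.90 ± 3.04 and 1.97 ± 0.664 RPKM (1.74, adjusted p = 2.54e-05). Of the G2/M genes 23 of 62 were higher and 1 lower, and 15 were higher without ZM447439 replicate 1 or without cytochalasin D replicate 2 or 3. KIF20A, CDC20 and PLK1 did not pass, at 1.58 ± 1.10, 3.55 ± 1.98 and 0.984 ± 0.628 RPKM with ZM447439 and 1.78 ± 0.518, 2.92 ± 0.955 and 0.889 ± 0.365 with cytochalasin D. Without ZM447439 replicate 1 KIF20A was lower with ZM447439 (-0.64, adjusted p = 0.0355). AURKB passed (0.93, adjusted p = 0.000982) and AURKA did not (0.16, adjusted p = 0.538). Ribosome biogenesis genes (23 of 32) and cholesterol and fatty acid synthesis genes (11 of 29) were higher and 0 of either lower. The count of the sterol list was 4 or 5 without cytochalasin D replicate 1 or without ZM447439 replicate 2 or 3.

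Interferon-stimulated and lysosomal genes were lower with ZM447439 than with cytochalasin D. Of 25 interferon-stimulated genes 21 were lower and 0 higher (median -0.67), with HLA-B, an MHC class I gene picked after its values were seen, at 99.9 ± 8.62 and 204 ± 58.2 RPKM (SD, n = 3; -1.0, adjusted p = 0.00121). Of the lysosome and autophagy genes 17 of 34 were lower and 1 higher, or 11 and 5 without ZM447439 replicate 1. CHI3L1 was 4.14 ± 2.29 RPKM with ZM447439 and 30.1 ± 6.88 with cytochalasin D (-2.85), and the integrin gene ITGA10 was 1.23 ± 0.218 and 7.06 ± 1.10 RPKM (-2.12, adjusted p = 1.08e-08). In the other direction stood the YAP target ANKRD1, at 79.3 ± 33.3 and 13 ± 4.56 RPKM (2.54, adjusted p = 0.000148), and the amino acid transporter gene SLC7A5, at 8.05 ± 0.741 and 1.65 ± 0.407 RPKM (2.00, adjusted p = 4.19e-06). Neither ANKRD1 (0.40) nor SLC7A5 (0.22) differed between ZM447439 and untreated cells by an amount that passed. The dose of cytochalasin D is not known, so the drugs were not matched for strength. Cytochalasin D against untreated 2N cells raised 17 of 20 FOXO targets and growth brakes (median 0.95), against 3539 of all 13037 genes. Between the drugs 3 of the 20 were higher with ZM447439 and 7 lower (median -0.15), against 23.2% and 13.7% of all genes. PIK3IP1 was one of the higher members (0.43, adjusted p = 0.0279). The p53 target TP53INP1 differed by -0.03 (adjusted p = 0.850). For CDKN1A the difference was -0.69 and did not pass (adjusted p = 0.349), whereas without ZM447439 replicate 1 it did (-1.37, adjusted p = 0.0406).

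The effect of ZM447439 in 4N cells was set against that in 2N cells by an interaction term, in which a negative value means a deeper fall or smaller rise in 4N cells. The term was higher for 459 genes (3.52%) and lower for 858 (6.58%), and after rescaling for 540 and 649. With the culture as a replicate block, which pairs the sorts of the same drug and number, the counts were 862 (6.61%) and 1643 (12.6%). The total of 1317 was 2429 without ZM447439 2N replicate 1, and 784 to 841 without untreated 4N replicate 1 or ZM447439 4N replicate 2 or 3. Among G2/M genes the term was lower for 34 of 62 and higher for 2, and with the block for 32 and 0. UBE2C, which works with the anaphase-promoting complex to tag cyclins, fell from 5.80 ± 2.05 to 2.44 ± 1.11 RPKM in 2N cells and from 47.4 ± 0.938 to 6.37 ± 0.472 in 4N cells (SD, n = 3; interaction -1.70, SE 0.39, adjusted p = 0.0138). The untreated levels differed greatly between the sorts, so the fall started from a higher value in 4N cells. AURKB fell further in 4N cells (-1.20, adjusted p = 0.00761), under each alternative tried. For AURKA (-0.95, adjusted p = 0.0407) and for KIF20A, with a deeper fall in 2N cells (1.39, adjusted p = 0.0420), the call was lost in 16 and 13 of 25 alternatives, among them the culture block (adjusted p = 0.0506 and 0.0887) and most left-out libraries. For PLK1 the term was 0.05 (SE 0.35), and the falls were -2.73 and -2.69.

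G1/S genes went the other way, with the term higher for 16 of 35 and lower for 1, or 17 and 3 with the culture as a replicate block. MCM5 fell by 1.83 in 2N and by 1.17 in 4N cells on the log2 scale (interaction 0.66, SE 0.10, adjusted p = 0.00140). CCNE2, with untreated levels of 2.46 ± 0.174 RPKM in the 2N sort and 0.621 ± 0.159 RPKM in the 4N sort (SD, n = 3), fell in 2N cells, and in 4N cells the log2 difference was -0.09 (interaction 1.01, SE 0.11). Of the ribosome biogenesis genes the term was higher for 10 of 32 and lower for 0, NOLC1 among them (0.71, adjusted p = 0.0139). Without ZM447439 2N replicate 1 it was 21 and 1, and without ZM447439 4N replicate 3 it was 6 and 0. For the p53 targets the interaction passed for 2 of 28, both higher, and with the block for 15 higher and 1 lower. It passed for 9 without ZM447439 2N replicate 1 and for 1 with any other of the 12 libraries left out, all higher. CDKN1A was 18.9 ± 6.49 RPKM in untreated and 78.1 ± 38.6 in treated 4N cells (SD, n = 3), and its interaction did not pass (1.02, SE 0.77, adjusted p = 0.450), but did with the block (adjusted p = 0.0187).

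**Figure D5:**
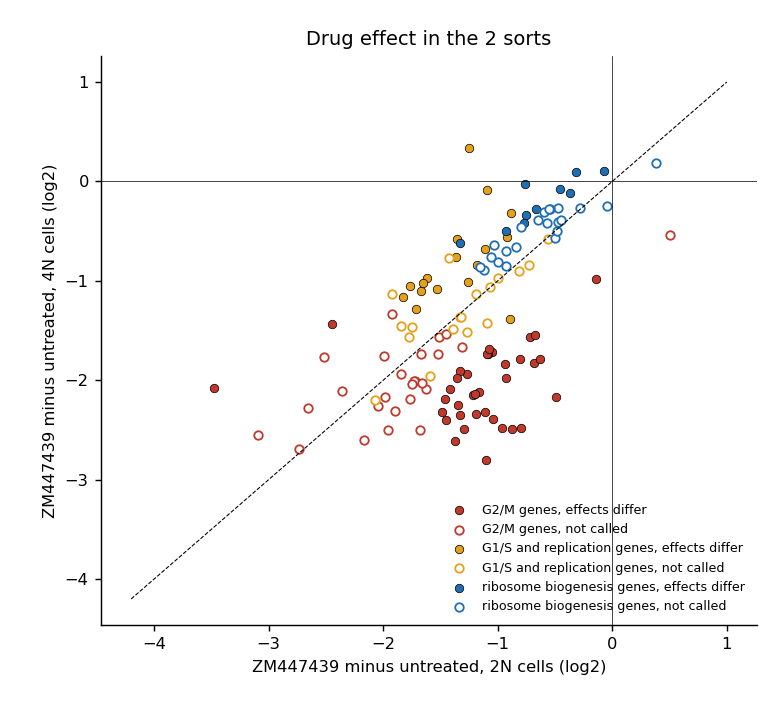
Log2 difference between ZM447439 and untreated cells in 4N cells (vertical) against that in 2N cells (horizontal) for members of 3 lists, with no library in common between the axes. Filled points passed the interaction test and the dashed line marks equal effects. Most filled G2/M genes lie below the line, and filled G1/S and ribosome biogenesis genes lie mostly above it.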

How the data were processed

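Polyadenylated RNA was measured with libraries that do not mark strand, per the labels' protocols. The authors deposited 1 table of RPKM values for 18 libraries; per the submitters' processing notes CASAVA 1.8.2, TopHat2, edgeR and the hg19 build were used, with no settings given. Low values were whole reads, within 0.05 reads, in 89.0% to 89.6% of cases with the genomic span as length, which also gave the library sizes. Symbols were found for 52338 of 57773 identifiers (90.6%).

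RPKM are not counts, so log2(RPKM + 0.5) was fitted in limma 3.58.1 (R 4.3.3), with one mean per group over 18 libraries, 12 residual degrees of freedom, a trend on the mean level and Benjamini-Hochberg adjustment over 13037 genes, at a threshold of 0.05. Each log2 difference and SE is on that scale, which understates changes of low genes, and each adjusted p is from that two-sided test. The fit was tested on simulated data. Nothing states that replicates shared more than a number across drugs, and the deviations of same-numbered ZM447439 and untreated libraries had correlations of 0.28, -0.21 and 0.20. Those of the sorts of the same drug and number were 0.19 to 0.63 in all 9 pairs, which were taken as 1 culture. These ranges overlap, so the correlations alone do not settle which libraries shared a culture.

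Gene lists and members were chosen with earlier results of these data known. Listed genes were matched by symbol, and lists are described by counts and medians only. Named genes are the Aurora kinases, CDKN1A, MDM2, CCND1 and MKI67; the 15 largest rises and 15 largest falls past the threshold without overlap and with at least 2 RPKM in the higher group; the 4 largest changes of each list; and the 6 largest of each other comparison. Some genes that these rules pick are not reported here. List members named for not passing or for falling against their list, INCENP, and the promoter windows, were chosen after their values were seen. Promoter windows are from RefSeq (GRCh38.p14), another build than the authors'. Alternatives were other pseudocounts (0.1 and 1), filters, scalings, variance models, blocks and left-out libraries.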

Additional observations from a re-analysis of the deposited data

Results flagged for a closer look

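The effect of ZM447439 differed between 4N and 2N cells, by the interaction test, for 1317 genes. Among the named genes the term (log2, 4N effect minus 2N effect) was -1.70 for UBE2C, -1.68 for CCNF, -1.68 for CDK1, -1.66 for PIF1, -1.61 for HJURP and -1.60 for CDKN2D, all with a larger fall in 4N cells. The CDK1 term did not pass at a pseudocount of 0.1 (adjusted p = 0.0551) or with RPM in place of RPKM (adjusted p = 0.0578). CCNF, for example, fell from 0.669 ± 0.165 to 0.329 ± 0.079 RPKM in 2N cells and from 4.32 ± 0.755 to 0.561 ± 0.036 RPKM in 4N cells (SD, n = 3). PIF1, a DNA helicase gene, fell from 0.518 ± 0.116 to 0.254 ± 0.081 RPKM and from 4.50 ± 0.682 to 0.667 ± 0.073 RPKM. For the drug's targets the term was -0.95 for AURKA, which was lost in 16 of 25 alternatives, and -1.20 for AURKB. All of these genes had higher untreated levels in 4N than in 2N cells.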

How the results depend on the processing

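For ZM447439 against untreated 2N cells, 7304 genes passed, 6455 to 7576 with 1 library left out, 11487 with no filter and 11313 with RPM in place of RPKM, where more genes were tested. Without the 6 libraries that stood apart 8955 passed, 4209 up and 4746 down. For ZM447439 against cytochalasin D, 4805 passed, 3614 to 4536 with 1 library left out, 7327 with no filter, 7665 with RPM and 2532 in a fit of the 6 libraries alone. For the interaction, 1317 passed, 2009 at a filter of 0.1 RPKM, 2261 with RPM, 2505 with the culture as a replicate block and 4870 without the 6 libraries that stood apart (replicate 1 of both drugs and replicate 3 of untreated cells, in both sorts). It was 784 to 2429 with 1 library left out: 2429 without ZM447439 2N replicate 1, 841 without untreated 4N replicate 1, 814 without ZM447439 4N replicate 2 and 784 without ZM447439 4N replicate 3; the cause was not tested. With the replicate number as a block the 3 counts were 7876, 5531 and 1832. Nothing states that the numbers pair the drugs. For ZM447439 against untreated 2N cells CDKN1A passed with that block (adjusted p = 0.0174, against 0.0834 to 0.964 over the other alternatives of that comparison).

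Of 114 named genes that passed for ZM447439 against untreated cells, 96 passed under all alternatives tried and 18 were lost in 1 or more, among them BEST1, CDK1, CDKN2D, COL1A1, DHCR7, H2AC6, JUND, MT-ATP8, MT-CO1, MT-CO2, MT-CO3, MYC, RDH5, SPARC, TPM1, TRIM22 and ZMAT3. Both genes that changed sign had not passed: MDM2 (0.37) was -0.20 to 0.65 with 1 library left out, and -0.27 without ZM447439 replicate 1 and untreated replicate 3 or without all 6 libraries. THY1 was -0.0328 to 0.0907 with 1 library left out and -0.0469 in the same 2 further settings. The alternatives with several libraries left out, RPM and the culture block were chosen after seeing the data. Depth limits the precision of low genes, since a named gene could hold as few as 26 reads in a library.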
